A study of Tribolium castaneum with 16 samples.

Results

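Regions of open chromatin called in embryos aged 0 to 24 h and 24 to 48 h and in the larval central nervous system (CNS), and called nowhere else, were followed across the development of the red flour beetle Tribolium castaneum. Any peaks of the 14 lists sharing 1 bp or more were joined into a region, and regions on the 10 linkage groups were kept. The members were the regions with a peak in both 0 to 24 h, both 24 to 48 h and both CNS lists and in no list of 48 to 72 h embryos, T2 or T3. They numbered 723 of 45389 merged regions (1.59%). Since the calls of all 14 lists chose them, the calls and the fold enrichments are given as a description, without a test.

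The lists that called the members came from whole Georgia I embryos collected over 24 h and aged at 30 °C, and from brains of last-instar pu11 larvae, with 2 samples in each of the 3 groups. The lists that did not call them came from 48 to 72 h Georgia I embryos (2 samples) and from lateral epidermis of last-instar pu11 larvae, taken with the elytron disc of the second thoracic segment (T2, 3 samples) or the hindwing disc of the third (T3, 3 samples). Larvae for the epidermis samples were selected by the activity of the pu11 enhancer trap. The strain thus changed with stage between embryo and larva, and CNS samples were fixed for 20 minutes and all others for 30 minutes. A whole embryo mixes many cell types, so an open site shared by fewer cells and a less open site in all cells cannot be told apart in these lists.

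FAIRE-seq enriches DNA that is poor in nucleosomes, because crosslinked nucleosomal DNA is lost to the phenol phase. Active promoters and enhancers are usually nucleosome-poor, and many enhancers of developmental genes are open only in some tissues or for part of development. In insects, early embryogenesis sets up segments and then the neuroblasts that build the nervous system, and many regulators of early patterning are used again in neural cells. Open sites shared by early embryos and brain are one place to look for such reused elements. Which genes lie near the members was not analysed here, and the regions are named by the coordinates of the deposited lists, counted from 1.

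The 14 lists differed in depth. The genome-wide background depth, the number of extended reads expected over a base as recovered from the lists, lay between 3.71 and 4.72 at 0 to 24 h, 1.89 and 2.08 at 24 to 48 h, and 5.91 and 9.85 in CNS. In the groups that did not call the members it was 1.92 and 2.53 at 48 to 72 h, 1.96 to 3.78 in T2 and 4.16 to 5.77 in T3. By this measure the 24 to 48 h lists were shallower than most lists that called no member. They held 18034 and 21309 peaks, against 9725 to 24689 in the lists that called none. The part of depth in the missing calls was not tested.

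Among all regions on linkage groups, 12516 (27.6%) had uniform calls, in which each of the 6 groups called the region in every list or in none. These fell into 39 patterns, of which the member pattern ranked 6 by number. It was the most frequent of the 10 patterns made of 3 groups, followed by CNS with T2 and T3 at 348 regions. The closest patterns were 0 to 24 h embryo and CNS only, with 1683 regions, and all embryos and CNS without epidermis, with 1198 regions. The members sit between these patterns, with 24 to 48 h embryos added to the first and 48 to 72 h embryos left out of the second. Early embryo with 24 to 48 h embryo but without CNS was called in 95 regions. The number of regions with a pattern also depends on the lengths of the lists. The member pattern needs calls in the longest lists, those of 0 to 24 h and CNS (31485 to 36080 peaks). It needs no call in the shortest, T2 replicate 1 (9725) and 48 to 72 h replicate 2 (10769). The ranks and counts of the patterns were not separated from list length.

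The 6 lists that define the pattern agreed on 11064 regions, and the members were 723 of these. Most of the 11064 were called in none (3247) or in all (3912) of the 6 epidermis lists. Of the 1728 that had no call at 48 to 72 h, 41.8% had no call in any of the 6 epidermis lists. A further 17.0% were called in 5 and 15.6% in all 6. Of the 6272 called in both 48 to 72 h lists, 19.1% had no epidermis call and 50.2% were called in all 6. The 3064 regions called in 1 of the 48 to 72 h lists were like those called in neither, with 43.3% in no epidermis list and 16.2% in all 6. Regions that lacked a call in a late embryo list thus more often had no epidermis call, as counts over these regions. Read the other way, 22.3% of the regions with no epidermis call had no 48 to 72 h call. The share was 17.8 to 22.0% with 1 to 5 epidermis lists and 6.88% with all 6. The difference thus lay mainly in the regions called in all 6 epidermis lists.

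**Figure D1:**
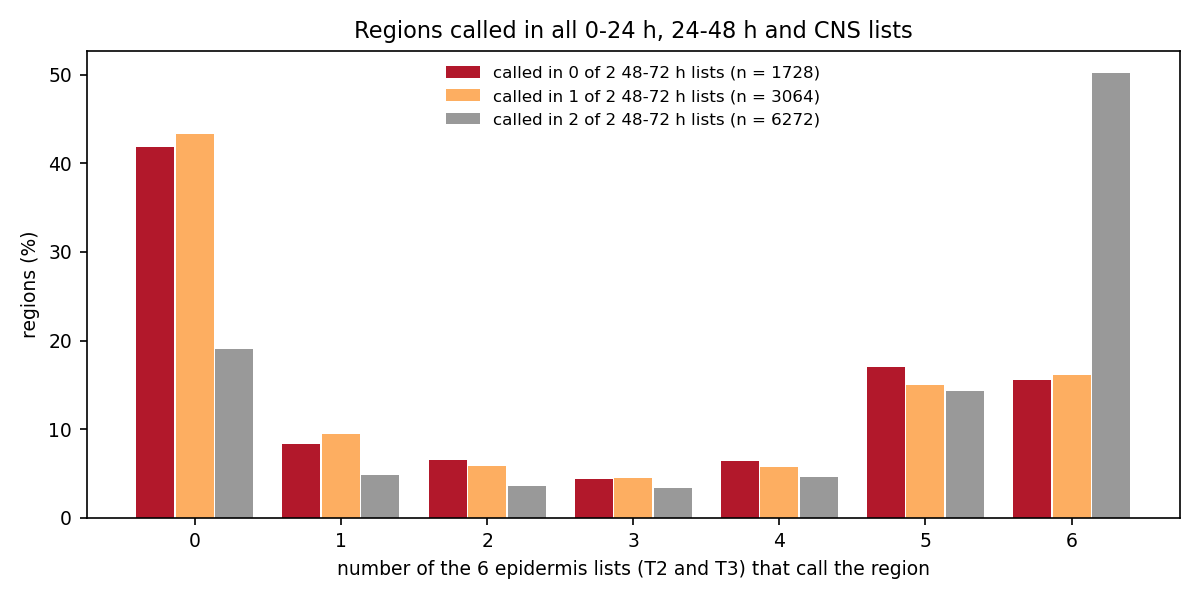
Regions called in all 0 to 24 h, 24 to 48 h and CNS lists, by the number of the 6 epidermis lists that called them (horizontal axis), as a percentage (vertical axis) of the regions called in 0, 1 or 2 of the 48 to 72 h lists. The members are the leftmost bar, 41.8% of 1728 regions, and the share called in all 6 epidermis lists is 50.2% where both 48 to 72 h lists called the region.

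Members were of middling strength in the lists that called them. The authors' fold enrichment of a peak is the ratio of its pileup to the peak caller's background, with 1 added to each. The strongest peak of each list in a region was used. The median fold over the members was 6.58 and 6.89 in the 0 to 24 h replicates 1 and 2, 4.85 and 5.05 in the 24 to 48 h replicates, and 3.75 and 4.79 in the CNS replicates. Over all regions called in the same lists it was 5.97 and 5.81, 5.30 and 5.52, and 3.94 and 4.92. The median member therefore stood at percentiles 57.3 and 61.6 of the 0 to 24 h lists, 38.7 and 40.1 of the 24 to 48 h lists and 45.8 and 47.9 of the CNS lists. Percentiles from lists of different lengths do not show a change between groups. Folds are not on 1 scale between groups either, because the added 1 lowers them most where the background is low. Without it, the median ratio over the members was 7.81 and 7.90 at 0 to 24 h. It was 6.66 and 6.73 at 24 to 48 h, and 3.96 and 5.32 in CNS.

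Compared within a list, the members lay between both closest patterns. In the 0 to 24 h replicate 1 the median fold was 6.58 for members, 4.60 for regions of 0 to 24 h embryo and CNS only, and 7.85 for regions of all embryos and CNS. In CNS replicate 2 these medians were 4.79, 3.96 and 6.48. The patterns differ in how many lists must call a region, and a call depends on peak strength. The part of the rule in this order was not tested. The weakest call of a member was in a 24 to 48 h list most often, in 408 members (56.4%) in replicate 1 and in 203 (28.1%) in replicate 2, by the −log10 q of the peak. These were also the lists with the least depth of the 6.

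**Figure D2:**
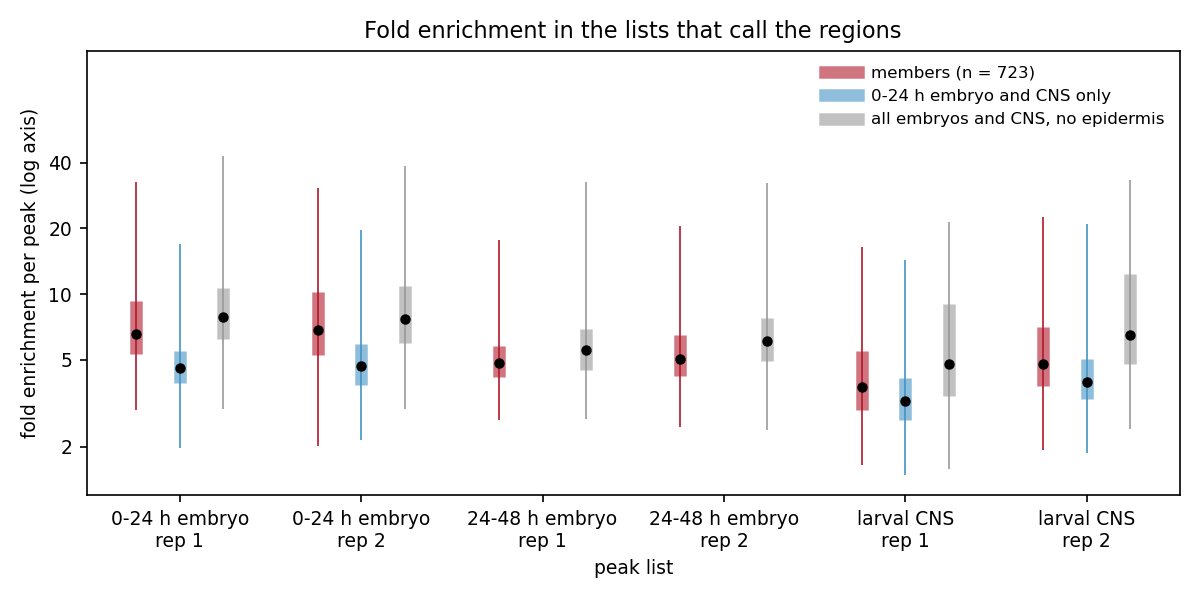
Fold enrichment per peak (vertical, log axis) in the 6 lists that called the members (horizontal axis), for members, regions of 0 to 24 h embryo and CNS only, and regions of all embryos and CNS without epidermis. Points are medians, thick bars quartiles and thin lines the full range; the 0 to 24 h replicate 1 medians are 6.58, 4.60 and 7.85.

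The smallest fold of a member over its 6 lists had a median of 3.52, with quartiles of 2.88 and 4.41 and a range from 1.66 to 11.2. The strongest member by this measure spanned 243 bp on ChLG3 from 188620 to 188862. Its folds were 19.3 and 20.6 at 0 to 24 h, 11.8 and 13.0 at 24 to 48 h, and 11.2 and 11.2 in CNS. Its 6 summits lay within 27 bp. In this region the folds were highest at 0 to 24 h, and those at 24 to 48 h and in CNS were near each other. The added 1 lowers folds more at 24 to 48 h, so near folds there do not mean equal ratios of pileup to background.

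The member on ChLG2 from 13833547 to 13833922, 376 bp long, had folds of 25.2 and 29.2 at 0 to 24 h, 10.9 and 12.7 at 24 to 48 h, and 16.4 and 20.3 in CNS. Its fold in CNS replicate 1 was the highest of all members in that list. The member on ChLG7 from 18149266 to 18149578 had folds of 16.6 and 18.6 at 0 to 24 h, 9.56 and 11.2 at 24 to 48 h, and 13.6 and 18.9 in CNS. In both regions the CNS folds lay above the 24 to 48 h folds as deposited, a comparison that the added 1 affects.

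Another balance was seen on ChLG7 from 13091611 to 13091903, where the folds were 21.2 and 28.9 at 0 to 24 h, 17.7 and 20.5 at 24 to 48 h, and 8.57 and 12.5 in CNS. The 24 to 48 h folds there were the highest of all members in both of those lists, and its 6 summits lay within 13 bp. The member on ChLG3 from 2814273 to 2814844 had a like order, with 18.2 and 23.4 at 0 to 24 h, 14.9 and 18.1 at 24 to 48 h, and 8.23 and 14.8 in CNS. Embryo folds exceeded CNS folds in these regions in every list.

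The member on ChLG4 from 9428213 to 9428866, 654 bp long, had folds of 26.9 and 26.4 at 0 to 24 h, 10.9 and 12.7 at 24 to 48 h, and 9.35 and 13.0 in CNS. At least 1 list called 2 peaks in it, and its summits were spread over 352 bp. Of the 10 strongest members it was the only one not kept in all 7 alternative ways of processing the lists, being lost with windows of 200 bp on the summits. The remaining 4 of these 10 lay on ChLG2 from 18058333 to 18058627, on ChLG7 from 6434913 to 6435182, on ChLG3 from 35188937 to 35189215 and on ChLG2 from 10318977 to 10319206. Their smallest folds were 8.85, 8.24, 7.998 and 7.98.

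**Figure D3:**
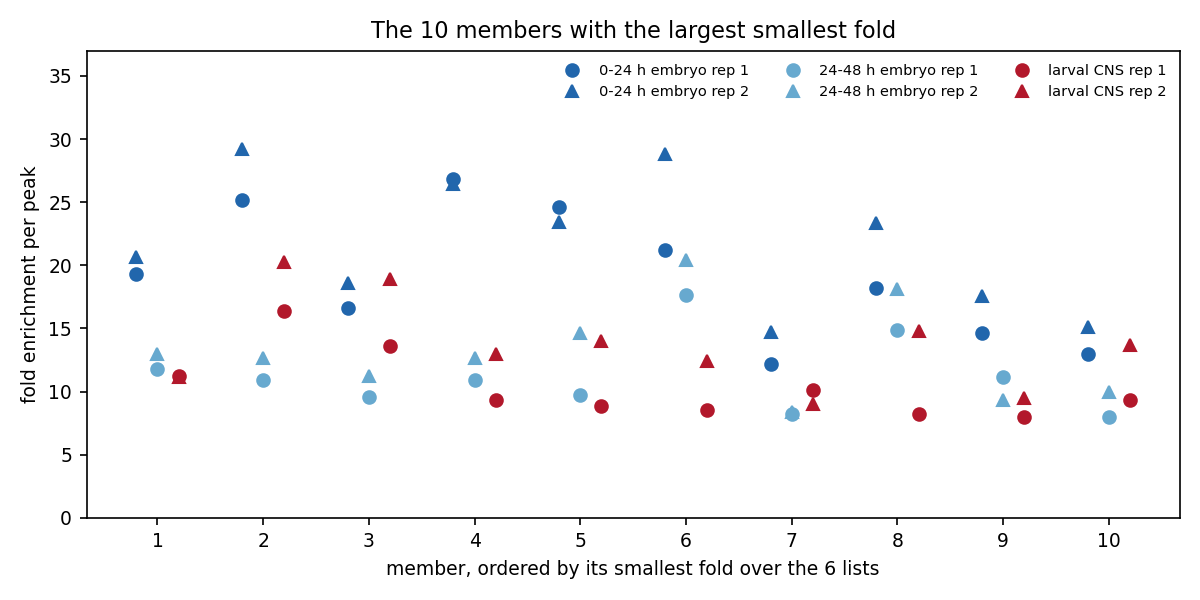
Fold enrichment per peak (vertical axis) in each of the 6 lists for the 10 members with the largest smallest fold (horizontal axis, strongest first); circles are replicate 1 and triangles replicate 2. A 0 to 24 h list has the highest point in 9 of the 10 and a CNS list in the third, and the lowest point drops with rank from 11.2 to 7.98.

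At the weak end, the member on ChLG6 from 7374375 to 7374616 had folds of 3.34 and 3.22 at 0 to 24 h, 3.03 and 4.19 at 24 to 48 h, and 1.66 and 2.42 in CNS. The member on ChLG2 from 2039225 to 2039954 had 3.91 and 3.18, 3.45 and 3.45, and 1.79 and 2.69 in the same lists. The widest members spanned 1160 bp on ChLG5 from 12642242 to 12643401 and 1146 bp on ChLG7 from 3016826 to 3017971. The second of these was weak, with a smallest fold of 2.76, and its strongest summits were spread over 888 bp.

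Fold enrichment was ordered alike in replicates of 0 to 24 h embryos and of CNS, and less so between groups. Over the 723 members, Spearman's rho was 0.823 between the 0 to 24 h replicates, 0.865 between the CNS replicates and 0.553 between the 24 to 48 h replicates, the shallowest pair. Between groups it was 0.477 to 0.661 for 0 to 24 h with 24 to 48 h, 0.346 to 0.490 for 0 to 24 h with CNS, and 0.441 to 0.508 for 24 to 48 h with CNS (4 pairs of lists each). The points of each correlation share their libraries and their choice by the calls, and the values describe these members.

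Few members were in the top 25% of fold in both lists of one group and in the bottom 25% in both lists of another. This rule is strict, and a looser one would count more members. In 35 members the fold was in the top 25% of members in all 6 lists. Of the 158 members in the top 25% in both CNS lists, 9 were in the bottom 25% in both 0 to 24 h lists. Of the 145 in the top 25% in both 0 to 24 h lists, 5 were in the bottom 25% in both CNS lists. Sidedness was measured as the mean percentile of a member's fold among the 723 in the CNS lists minus that in the 0 to 24 h lists, and 1 member at each end was singled out after its values were seen. The member with the largest difference lay on ChLG1 from 4988145 to 4988663, with mean percentiles of 97.3 in CNS and 10.7 at 0 to 24 h. Its folds were 4.46 and 4.37 at 0 to 24 h, 5.54 and 5.19 at 24 to 48 h, and 11.1 and 15.1 in CNS. The member with the lowest difference lay on ChLG4 from 7128178 to 7128472, with mean percentiles of 9.23 in CNS and 89 at 0 to 24 h. Its folds were 14.2 and 13.8, 4.04 and 5.23, and 2.54 and 3.02 in the same order. By the ratio of folds other members would stand at the ends.

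The summits of embryo and CNS lay close together in the members. The rule did not use the position of the summit. It did require peaks of all 6 lists in 1 joined region, with a median width of 323 bp. This limits how far apart summits can lie, so close summits are partly given by the choice. The median distance between the strongest summits of a member was 17 to 23 bp for the 4 pairs of a 0 to 24 h list with a CNS list, and 21 to 23 bp for the 4 pairs of a 24 to 48 h list with a CNS list. Between replicates it was 14 bp at 0 to 24 h, 20 bp at 24 to 48 h and 17 bp in CNS. The distance between embryo and brain was therefore close to that between replicates. The 0 to 24 h and CNS summits were 16 to 20 bp apart in regions of 0 to 24 h embryo and CNS only, 31 to 36.5 bp in the wider regions of all embryos and CNS, and 19 to 23 bp in the 10341 other regions called in the same 6 lists. The close summits were thus no trait of the members alone. All 6 summits lay within 50 bp in 343 members (47.4%) and within 100 bp in 497 (68.7%), with a median span of 54 bp.

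Members had a median width of 323 bp, with quartiles of 253 and 440 bp, and covered 269.6 kb. Regions of 0 to 24 h embryo and CNS only had a median of 241 bp and regions of all embryos and CNS 571.5 bp. A merged region widens with the number of lists that call it, and regions called in any other set of exactly 6 lists had a median of 306 bp. Each list called at most 1 peak in 618 members (85.5%).

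The members were found on all 10 linkage groups. Their share of the regions on a linkage group ranged from 1.09% on ChLG3, with 71 of 6496, to 1.93% on ChLG5, with 107 of 5552. The share of members among the regions called in the same 6 lists was also lowest on ChLG3, at 4.91%, and ranged up to 7.69% on ChLG10. The nearest other member lay 43.6 kb away in the median, and 143 members (19.8%) had another within 10 kb. These distances, and the tight groups named below, were not set beside those of other regions. The region next to a member was itself a member for 29 of the 723 (4.01%), against 3.15% for all regions.

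The tightest group of 3 members lay within 3756 bp on ChLG8, from 12233691 to 12237446, with 2 other regions between them. The next lay within 3945 bp on ChLG2, from 18054683 to 18058627, and no other region lay between its members. The ChLG2 group consisted of regions from 18054683 to 18054977, from 18056316 to 18056545 and from 18058333 to 18058627. The third of these was among the 10 strongest members, with folds of 24.6 and 23.4 at 0 to 24 h, 9.70 and 14.6 at 24 to 48 h, and 8.85 and 14.05 in CNS, and the smallest folds of the first and second were 4.50 and 4.87. All 3 thus carried the same calls at unequal strength.

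Peaks of the groups that did not call the members lay at about the same distance from them as from regions of 0 to 24 h embryo and CNS only. The nearest peak of a 48 to 72 h list lay 2504 bp away in the median, that of a T2 list 2386 bp and that of a T3 list 1861 bp, against 2528, 2468 and 1813 bp for the regions of 0 to 24 h embryo and CNS only. A peak of any of these groups lay within 500 bp of 193 members (26.7%) and within 100 bp of 29 (4.01%), against 30.1% and 5.05% of those regions.

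Depth and number of peaks did not go together in the 48 to 72 h lists, where replicate 2 was deeper than replicate 1 (2.53 and 1.92 expected reads per base) and held fewer peaks (10769 and 17288). The part of depth and of library quality in the missing calls was not tested.

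The number of members rested largely on 2 lists. Without the 48 to 72 h replicate 1 the pattern held for 1977 regions, and without the 24 to 48 h replicate 1 for 1571. Leaving out any 1 of the other 12 lists gave between 723 and 963, and leaving out both of the first gave 3298. The 1254 regions just outside, kept out by the 48 to 72 h replicate 1 alone, had a median fold of 4.51 in that list and of 4.66 and 5.07 in the 24 to 48 h lists, where members had 4.85 and 5.05. Their median width was 489.5 bp. The 848 regions kept out by the 24 to 48 h replicate 1 alone had a median fold of 4.48 in its replicate 2. Just inside, the lowest −log10 q of a member was 1.36, in CNS replicate 1, and in each of the 6 lists at most 4 members had a value under 2.

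**Figure D4:**
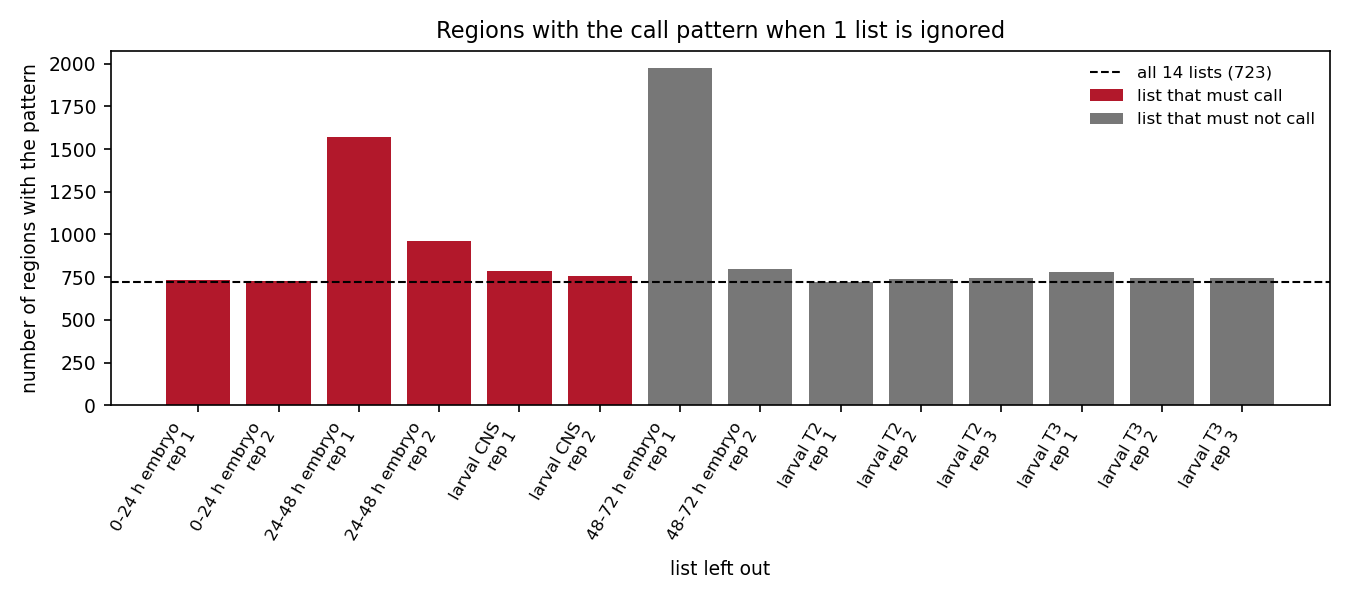
Number of regions with the call pattern (vertical axis) when the list named on the horizontal axis is ignored, for lists that must call the region and lists that must not. The dashed line marks 723, and the bars of the 48 to 72 h replicate 1 at 1977 and the 24 to 48 h replicate 1 at 1571 stand above the others.

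Ranking also mattered to which regions were members. With every list kept to its best 9725 peaks, the length of the shortest, 155 regions had the pattern and they overlapped 46 of the 723 (6.36%). With the best 50% of each list 488 had it and overlapped 90 (12.4%). All 10 strongest members kept the pattern in both settings. They were chosen by high fold in the lists that call them, and both settings keep the best peaks. That they were kept thus largely follows from the choice. After scaling all lists to the depth of the shallowest, 548 had the pattern and overlapped 512 members (70.8%). Where a list counted as calling only if its peaks covered at least 50% of the region, 854 regions had the pattern and overlapped 347 members (48.0%).

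To look at lists that had no part in the choice, regions were chosen by the same pattern on the replicate 1 lists alone, which gave 1346. In replicate 2, 99.0% of them were called at 0 to 24 h (95% Clopper-Pearson interval 98.3 to 99.4%), 75.8% at 24 to 48 h (73.4 to 78.0%) and 95.8% in CNS (94.6 to 96.8%). Among all 39663 regions with a call in a replicate 1 list, these shares were 68.2%, 41.8% and 71.1%. Among the 12045 regions called in replicate 1 of the same 3 groups, whatever the other lists, they were 99.5%, 93.0% and 98.8%, so the chosen regions were called less often than these, above all at 24 to 48 h. In the groups meant to lack a call, 8.17% were called in the 48 to 72 h replicate 2 (6.76 to 9.77%), against 20.6% of all such regions and 55.2% of the 12045. In T2 replicates 2 and 3 it was 6.24% and 8.84%, against 36.8% and 37.1% of all such regions. In T3 replicates 2 and 3 it was 7.06% and 8.17%, against 38.8% and 40%. Among the 12045 the share in these 4 epidermis lists was 56.4 to 56.8%. The whole pattern came back in replicate 2 for 779 of the 1346 (57.9%, 55.2 to 60.5%), against 11.6% of all such regions. These intervals cover counting error only, and regions of 1 library are not replicates.

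Chosen on the replicate 2 lists instead, 4635 regions had the pattern, and it came back in replicate 1 for 779 of them (16.8%, 15.7 to 17.9%), against 3.46% of all regions with a replicate 2 call. Of the 4635, 49.5% were called in the 48 to 72 h replicate 1, against 33.8% of all regions with a replicate 2 call and 71.0% of the 15118 called in replicate 2 of 0 to 24 h, 24 to 48 h and CNS. In the 24 to 48 h replicate 1, 56.7% were called, against 35.3% of all and 75.5% of the 15118. At 0 to 24 h 97.7% were called, against 65.2% and 98.7%, and in CNS 89.6%, against 72.3% and 95.6%. In T2 replicates 1 and 3, 0.173% and 6.06% were called, against 18.6% and 40.1% of all and 30.7% and 52.2% of the 15118. In T3 replicates 1 and 3, 12.6% and 6.24% were called, against 44.6% and 44.2% of all and 58.2% and 52.7% of the 15118. In both directions the chosen regions were called less often than the regions of the same 3 groups in every list looked up, and the difference was smallest at 0 to 24 h and in CNS.

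**Figure D5:**
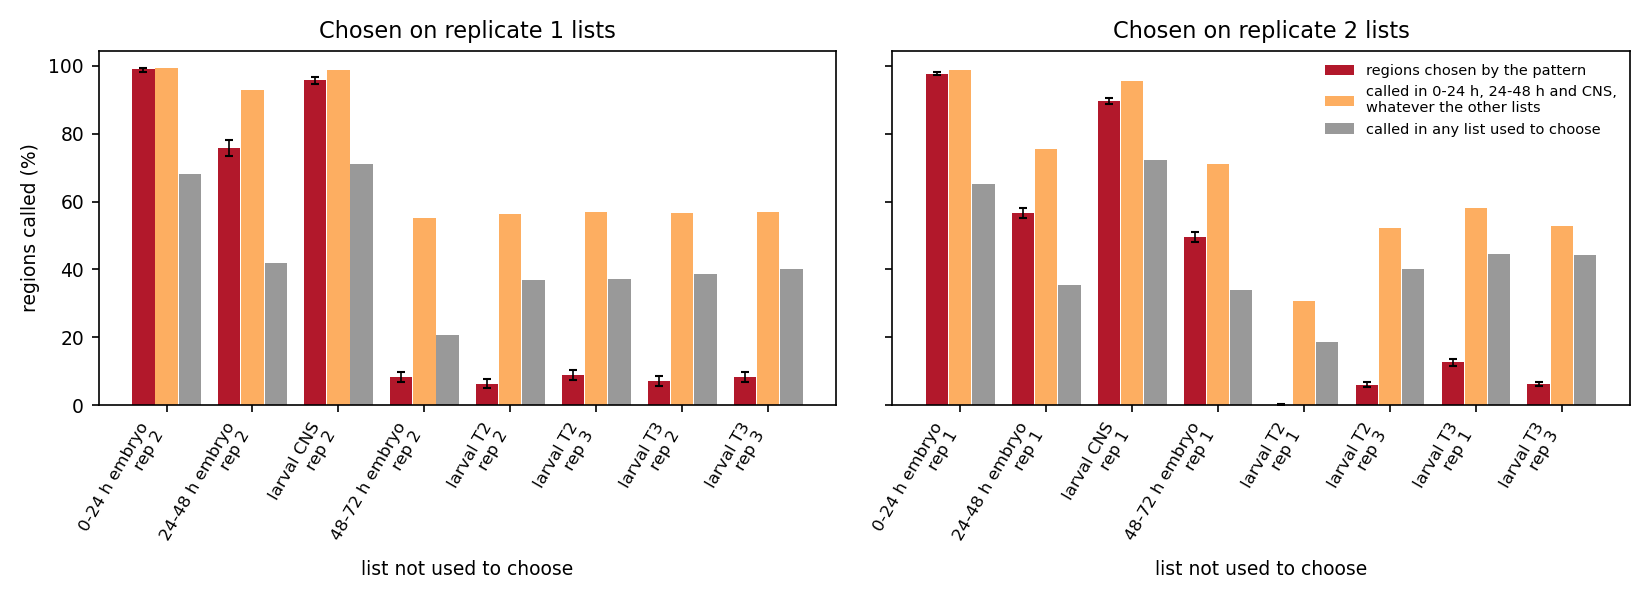
Share of regions called (vertical axis, %) in lists not used to choose them (horizontal axis), for regions chosen by the pattern on the replicate 1 lists (left panel) or the replicate 2 lists (right panel), regions called in the 0 to 24 h, 24 to 48 h and CNS lists used to choose, and regions called in any list used to choose. Error bars are 95% Clopper-Pearson intervals; in the 48 to 72 h embryos the share of chosen regions is 8.17% in replicate 2 and 49.5% in replicate 1.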

How the data were processed

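Each deposited file was a narrowPeak list of peaks called on a single sample. Per the submitters' processing notes, Trimmomatic 0.32, Bowtie2 2.2.3, SAMtools 0.1.12a, deepTools 2.5.2 and MACS2 2.1.1.20160309 were used. The genome build, control library and threshold are not given in the sources used here. The deposited fold enrichment is a ratio of pileup to background, with 1 added to each. The deposited −log10 p-value and −log10 q-value belong to a peak within its list. The deposited score was not used.

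Samples were grouped by title. Peaks were merged, calls counted and medians taken with Python 3.11.15, numpy 2.4.6, pandas 2.3.3 and scipy 1.17.1. Pileup and background were solved from fold and p under a Poisson model, and all but 7 of 323093 pileups were whole within 0.02. Total read numbers are unknown. The merging, call rule and recovery were tested on simulated lists. No comparison was tested, because the calls chose the members.

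The members, patterns and alternatives were chosen with earlier results of these data known. Named are the 10 members with the largest smallest fold, the 2 with the smallest, the 2 widest and the 2 tightest groups of 3. A further 2 members, high in CNS and low at 0 to 24 h or the reverse, were singled out after their values were seen. Genes and sequence near members were not analysed here, and the 2 input samples were not used. The labels do not say whether replicates came from separate collections.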

Additional observations from a re-analysis of the deposited data

How the results depend on the processing

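The number of members was within 1.5 times of 723 in 6 of 7 alternatives on all lists, and 155 with equal list sizes. The regions differed more than the count, with from 6.36% to 94.6% of the 723 overlapped in these 7. Leaving out 1 list gave between 723 and 1977. The median of the smallest fold, 3.52, was 5.91 in the best 50% of each list and 6.58 at equal list sizes, where weak peaks were removed by construction. It lay between 3.41 and 4.01 when a list was left out. The share of regions in which the pattern came back, 57.9%, was 46.1% at equal list sizes and 16.8% when chosen on replicate 2. No paired analysis was possible because the results come from no test. Other settings for gene position and sequence features were not run, as neither was analysed. After scaling to the depth of the shallowest list, 71.6% of members were still called in CNS replicate 1, the deepest list. In CNS replicate 2 it was 95.2%, and in the 0 to 24 h and 24 to 48 h lists 99.6 to 100%.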

Other observations

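The same call pattern was found in 50 of 6995 merged regions on unplaced scaffolds, which were left out above. The opposite pattern, a peak in every 48 to 72 h, T2 and T3 list and in no other list, was found in 16 regions on linkage groups (0.0353%). It needs calls in the shortest lists, T2 replicate 1 (9725 peaks) and 48 to 72 h replicate 2 (10769). It also needs no call in the longest, those of 0 to 24 h and CNS (31485 to 36080). The count is therefore not comparable with that of the members. At the members, the background of the peak was at the genome-wide minimum of its list (within 1%) for 39.1 to 42.2% of members over the 6 lists. It was so for 25.1 to 28.1% of all regions called in the same lists. In regions of all embryos and CNS without epidermis the share over the same 6 lists was 34.1 to 35.9%. In regions of 0 to 24 h embryo and CNS only it was 28.8 to 29.8% over the 0 to 24 h and CNS lists.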
